A study of Mus musculus with 8 samples.

Results

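The receptors described here are a set of G protein-coupled receptors through which leukocytes sense chemoattractants. The set comprised 9 genes of this family, listed by symbol and chosen with earlier results of these data known. It held the chemokine receptors *Ccr1*, *Ccr2*, *Ccr3*, *Cx3cr1* and *Cxcr4* and the chemokine receptor-like gene *Ccrl2*. The others were the formyl peptide receptor *Fpr1*, the platelet-activating factor receptor *Ptafr* and the leukotriene B4 receptor *Ltb4r1*. Among the 25697 probes of the bead array, which carry 18138 gene symbols, 8 probes carried 8 of these 9 symbols, 1 probe each. No row of the table carried *Ptafr* as symbol, synonym or gene identifier, so it was not analysed here. The probes of 5 genes (*Ccrl2*, *Fpr1*, *Cxcr4*, *Cx3cr1* and *Ltb4r1*) passed the filter on dim probes, which asked for detection (p-value under 0.05 against the array's negative controls) on 2 or more of the 8 arrays. *Ccr1*, *Ccr2* and *Ccr3* were detected on 0 of the 8 arrays.

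The arrays compared bone marrow-derived macrophages (BMDMs) of mice with and without inducible nitric oxide synthase (iNOS), the enzyme that makes nitric oxide in activated macrophages and is encoded by *Nos2*. All cells came from female mice labelled C57bl/6J, aged 8 weeks, and had grown in 10 ng/ml GM-CSF until day 7. There were 4 groups with 2 arrays each. WT CON cells came from wild type mice and had no further stimulus. WT M1 cells came from wild type mice and were activated with 200 ng/ml LPS and 10 ng/ml IFN-γ for 6 h, which drives the inflammatory M1 state. iNOSKO CON and iNOSKO M1 cells came from iNOS deficient mice and were handled as WT CON and WT M1 cells, respectively. Per the methods, the deficient mice carry a germline mutation of *Nos2* (allele *Nos2*tm1Lau) on a B6 background, so every cell of the culture lacks the enzyme, not only the macrophages. The labels do not say whether the arrays of a group came from separate mice or cultures, so p-values measure only the spread between these arrays, which may be technical.

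Chemoattractant receptors couple to Gi proteins and steer the migration of monocytes, macrophages and neutrophils along gradients of their ligands. CCR2 and CX3CR1 mark the classical and the patrolling arm of the monocyte lineage, CXCR4 retains cells in bone marrow through CXCL12, and FPR1 senses formylated peptides of bacteria and mitochondria. CCRL2 differs from the others in that it binds the chemoattractant chemerin without signalling itself. Microbial products are known to change the levels of many of these receptors in macrophages, some upwards and some downwards.

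The stretches before the start sites of 3 receptors with large changes are shown so that their letters can be read beside the values that follow. They are the 250 bases upstream of the RefSeq transcript start (build GRCm38.p6), read 5′ to 3′ on the gene's strand, with matches to a kappaB motif (GGG and CC with any 5 bases between them), an ISRE motif (2 blocks of GAAA with any 2 bases between them) or a GAS motif (TTCNNNGAA) in capitals. These are motifs of NF-kappaB, interferon regulatory and STAT factors. *Ccrl2* has 3 annotated starts, and the window of the most upstream start is given.
*Ccrl2* chr9:111057519-111057768, minus strand: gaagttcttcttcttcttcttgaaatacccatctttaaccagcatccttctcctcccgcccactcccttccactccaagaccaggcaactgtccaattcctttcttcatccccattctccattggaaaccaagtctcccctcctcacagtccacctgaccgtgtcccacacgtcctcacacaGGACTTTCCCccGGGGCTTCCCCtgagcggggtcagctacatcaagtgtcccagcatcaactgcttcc
*Fpr1* chr17:17883940-17884189, minus strand: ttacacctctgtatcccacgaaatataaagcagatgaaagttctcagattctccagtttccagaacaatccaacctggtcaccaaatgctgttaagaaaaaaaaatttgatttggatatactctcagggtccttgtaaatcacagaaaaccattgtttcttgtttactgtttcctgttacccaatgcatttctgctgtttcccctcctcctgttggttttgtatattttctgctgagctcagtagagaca
*Cxcr4* chr1:128592300-128592549, minus strand: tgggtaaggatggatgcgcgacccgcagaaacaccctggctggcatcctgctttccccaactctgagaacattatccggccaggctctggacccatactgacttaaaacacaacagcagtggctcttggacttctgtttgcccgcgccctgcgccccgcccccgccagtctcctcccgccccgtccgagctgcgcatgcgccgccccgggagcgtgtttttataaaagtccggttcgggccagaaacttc
Motifs were searched on both strands, over the window from 250 bases before to 50 bases after the start. The *Ccrl2* window held 3 kappaB matches, starting 68, 56 and 55 bases before the start, of which the last 2 overlap each other. The windows of the other 2 *Ccrl2* starts held none. No match to any of the motifs, nor to the AP-1 motif TGANTCA or the PU.1 motif GAGGAA, was found in the *Fpr1* or the *Cxcr4* window. Over the 32851 windows of 300 bases in the table, 50.8% held a kappaB match, 3.44% an ISRE match, 8.30% a GAS match, 7.81% an AP-1 match and 28.3% a PU.1 match. A kappaB match by these letters is therefore common. In the windows of the other tested genes, *Cx3cr1* had 1 kappaB match and *Ltb4r1* had 2 PU.1 matches.
The readout itself is 1 bead probe of 50 bases for each gene. The *Fpr1* probe, which spans bases 587 to 636 of the transcript, is given as the example. *Fpr1* has close relatives (*Fpr2* and *Fpr3*) that a probe has to tell apart. Whether this probe does so was not tested here.
*Fpr1* probe: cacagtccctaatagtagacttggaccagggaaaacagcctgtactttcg

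The deposited values are probe intensities as averaged over beads. Mean intensity per array ran from 155 to 224, and 11833 to 12673 probes (46.0% to 49.3%) were detected per array. Arrays of a group differed by 0.16 to 0.19 in log2 intensity (median over probes), and arrays of different groups by 0.34 to 0.82. The closest arrays of different groups were those of WT M1 and iNOSKO CON, at 0.34 to 0.36. A likeness of WT M1 and iNOSKO CON in single genes is thus shared by the arrays as a whole. Intensities were scaled between arrays, values under 1 were set to 1, and a limma model of the 4 groups gave the differences, called at a Benjamini-Hochberg adjusted p under 0.05. *Nos2* itself was undetected on the 4 CON arrays. Its intensities were 151.1 and 101.7 in WT M1 and 164.3 and 169.9 in iNOSKO M1, a log2 difference of 0.32 (SE 0.32, adjusted p = 0.445 from limma). Where the *Nos2* probe lies relative to the mutation was not determined here, so it does not check the genotype labels, and every direction below is that of the labels. Macrophage markers were detected throughout, 10 of 10 in each group.

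*Ccrl2* and *Fpr1* were highest after activation of iNOSKO cells, *Cxcr4* and *Cx3cr1* were highest in resting WT cells, and *Ltb4r1* was highest in activated WT and resting iNOSKO cells. Between iNOSKO M1 and WT M1, all 5 tested receptors differed, *Ccrl2* and *Fpr1* higher and *Cxcr4*, *Cx3cr1* and *Ltb4r1* lower in iNOSKO M1. Across all tested probes 48.2% were called in this comparison, 22.9% higher and 25.3% lower, so a call alone is common. Between iNOSKO CON and WT CON 3 of 5 were called, *Ltb4r1* higher and *Ccrl2* and *Cxcr4* lower, against 32.2% of all probes (16.7% higher, 15.4% lower). On activation 4 of 5 were called in WT cells, 3 higher and 1 lower, against 35.1% of all probes (20.8% higher, 14.3% lower). In iNOSKO cells 5 of 5 were called, 2 higher and 3 lower, against 50.3% of all probes (25.2% higher, 25.1% lower). As these are bulk cultures, fewer cells of a type and less RNA per cell cannot be told apart in any of these values.

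**Figure D1:**
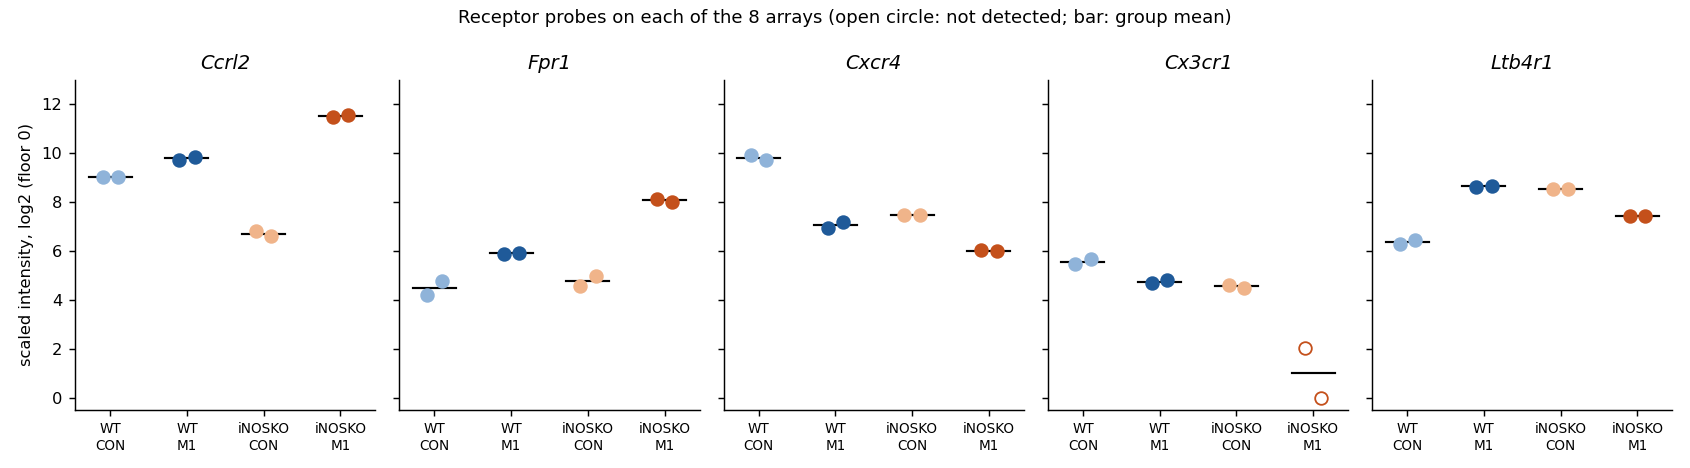
Log2 scaled intensity (y axis, floor at 0) of the 5 tested receptor probes on each of the 8 arrays, by group on the x axis; points are arrays, open circles are arrays where the probe was not detected, and bars are means of 2 arrays. *Ccrl2* and *Fpr1* peak in iNOSKO M1 with means of 11.53 and 8.06, *Cxcr4* peaks in WT CON with 9.81, and *Cx3cr1* was not detected on either iNOSKO M1 array.

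*Ccrl2*, the chemerin-binding receptor, had deposited intensities of 597.2 and 579.9 in WT CON, 720.1 and 713.7 in WT M1, 129.8 and 120.4 in iNOSKO CON, and 2625.2 and 2523.4 in iNOSKO M1. No 2 groups overlapped, and the iNOSKO cells held both the lowest and the highest values. In log2 scaled intensity the means were 9.03 ± 0.02, 9.79 ± 0.10, 6.70 ± 0.13 and 11.53 ± 0.05 (SD, n = 2 arrays each) in the same order. Resting iNOSKO cells were therefore 5.01-fold below resting WT cells (log2 difference -2.32, SE 0.10, adjusted p = 0.000159 from limma). After activation the order was turned, with iNOSKO M1 3.34-fold above WT M1 (log2 difference 1.74, SE 0.10, adjusted p = 0.000279).

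Activation raised *Ccrl2* 28.4-fold in iNOSKO cells (log2 difference 4.83, SE 0.10, adjusted p = 1.52e-05 from limma) and 1.70-fold in WT cells (0.76, SE 0.10, adjusted p = 0.00454). Of all 13868 tested probes, 125 changed further in either direction in iNOSKO cells, or 0.901%. The rise was larger in iNOSKO cells by 4.06 (SE 0.15, adjusted p = 0.000147), a gap to which both their lower resting value and their higher activated value add.

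*Fpr1*, the receptor for formylated peptides, was dim in 3 groups. Its intensities were 20.8 and 30.7 in WT CON, 49.2 and 46.9 in WT M1, 27.7 and 38.2 in iNOSKO CON, and 254.2 and 212.5 in iNOSKO M1, detected on all 8 arrays. The resting groups overlapped each other, and both iNOSKO M1 arrays stood above all other arrays. The log2 means were 4.49 ± 0.41 in WT CON, 5.89 ± 0.06 in WT M1, 4.76 ± 0.28 in iNOSKO CON and 8.06 ± 0.09 in iNOSKO M1 (SD, n = 2 arrays each).

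Activated iNOSKO cells had 4.49-fold more *Fpr1* signal than activated WT cells (log2 difference 2.17, SE 0.23, adjusted p = 0.00129 from limma). The resting groups differed by 0.28, with a 95% interval from -0.31 to 0.86 (adjusted p = 0.424), so these arrays leave the size of a resting difference unresolved within those bounds. *Fpr1* rose 2.65-fold on activation in WT cells (log2 difference 1.41, adjusted p = 0.00856) and 9.84-fold in iNOSKO cells (3.30, adjusted p = 0.000264). The rise was larger in iNOSKO cells by 1.89 (SE 0.33, adjusted p = 0.00828).

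*Cxcr4*, the CXCL12 receptor, ran the other way. Its intensities were 1090.0 and 947.0 in WT CON, 105.1 and 111.9 in WT M1, 205.5 and 215.1 in iNOSKO CON, and 59.8 and 52.3 in iNOSKO M1. Resting WT cells stood far above every other group, and the groups did not overlap. The log2 means were 9.81 ± 0.13, 7.07 ± 0.17, 7.45 ± 0.00 and 6.00 ± 0.04 (SD, n = 2 arrays each) in that order. The middle groups, WT M1 and iNOSKO CON, were not tested against each other.

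Activation lowered *Cxcr4* 6.72-fold in WT cells (log2 difference -2.75, SE 0.12, adjusted p = 0.000120 from limma), and 64 of the 13868 tested probes fell further. In iNOSKO cells it fell 2.73-fold (-1.45, adjusted p = 0.000437), from a resting value that was already 5.14-fold below that of WT cells (-2.36, adjusted p = 0.000229). The fall was smaller in iNOSKO cells by 1.30 (SE 0.17, adjusted p = 0.00333). Activated iNOSKO cells nevertheless remained 2.09-fold below activated WT cells (-1.06, SE 0.12, adjusted p = 0.00153).

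*Cx3cr1*, the fractalkine receptor, was dim throughout. Its intensities were 49.6 and 56.4 in WT CON, 21.8 and 21.5 in WT M1, 28.3 and 27.6 in iNOSKO CON, and 3.7 and -0.4 in iNOSKO M1, where it was not detected on either array. The deposited intensities did not overlap between groups and were highest in WT CON and lowest in iNOSKO M1. The log2 means were 5.55 ± 0.15, 4.74 ± 0.09, 4.54 ± 0.08 and 1.01 ± 1.43 (SD, n = 2 arrays each), the last of them set by the floor, and the order of WT M1 and iNOSKO CON turned with the scaling. For a probe that is undetected in a group only a bound is known. *Cx3cr1* was at least 3.59-fold lower in iNOSKO M1 than in WT M1 and at least 3.12-fold lower than in iNOSKO CON. Each bound was set against the lowest detected intensity of the iNOSKO M1 arrays. The limma tests were of the fitted log2 differences, which rest on the floor, and not of the bounds. These differences were -3.73 (adjusted p = 0.00615 from limma) and -3.53 (adjusted p = 0.00672). The bounds hold for this scaling. The fitted log2 differences were smaller in size than these bounds with neqc normalization (-1.02 and -0.98) and with an intercept in the scaling (-1.72 and -1.59). They were smallest with values under 16 set to 16 (-0.74 and -0.54), and were called in each of these fits.

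The other *Cx3cr1* comparisons depended on how the undetected arrays were treated. The fitted differences were -1.01 between the resting groups (95% interval -2.60 to 0.59, adjusted p = 0.287 from limma) and -0.81 on activation in WT cells (-2.40 to 0.79, adjusted p = 0.372). Neither was called, with a standard error of 0.63 to which the iNOSKO M1 arrays at the floor contributed. With either iNOSKO M1 array left out, the fitted differences stayed at -1.01 between the resting groups and -0.81 on activation in WT cells. Their standard error fell to 0.12. The difference in response of -2.72 (SE 0.89, adjusted p = 0.0594) was not called and had the opposite sign, 0.27, with values under 16 set to 16.

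*Ltb4r1*, the high-affinity receptor for leukotriene B4, changed in opposite directions in the 2 genotypes. Its intensities were 87.3 and 96.2 in WT CON, 333.2 and 312.4 in WT M1, 438.1 and 460.1 in iNOSKO CON, and 157.0 and 142.0 in iNOSKO M1. Thus WT M1 and iNOSKO CON held the high values, with the deposited intensities of iNOSKO CON above those of WT M1. The log2 means after scaling were 6.34 ± 0.11 in WT CON, 8.64 ± 0.04 in WT M1, 8.55 ± 0.00 in iNOSKO CON and 7.42 ± 0.01 in iNOSKO M1 (SD, n = 2 arrays each), so that the order of the 2 high groups turned with the scaling.

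On activation *Ltb4r1* rose 4.91-fold in WT cells (log2 difference 2.30, SE 0.09, adjusted p = 8.66e-05 from limma) and fell 2.18-fold in iNOSKO cells (-1.13, SE 0.09, adjusted p = 0.000390). The responses differed by -3.42 (SE 0.13, adjusted p = 0.000147). Resting iNOSKO cells were 4.61-fold above resting WT cells (2.20, adjusted p = 0.000131), and activated iNOSKO cells were 2.33-fold below activated WT cells (-1.22, adjusted p = 0.000456). *Ltb4r1* was the only tested receptor of the set whose sign differed between the genotypes on activation. Across the set 4 of 5 receptors differed in response, 3 with a positive and 1 with a negative difference, against 42% of all probes tested (19.4% positive, 22.6% negative).

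**Figure D2:**
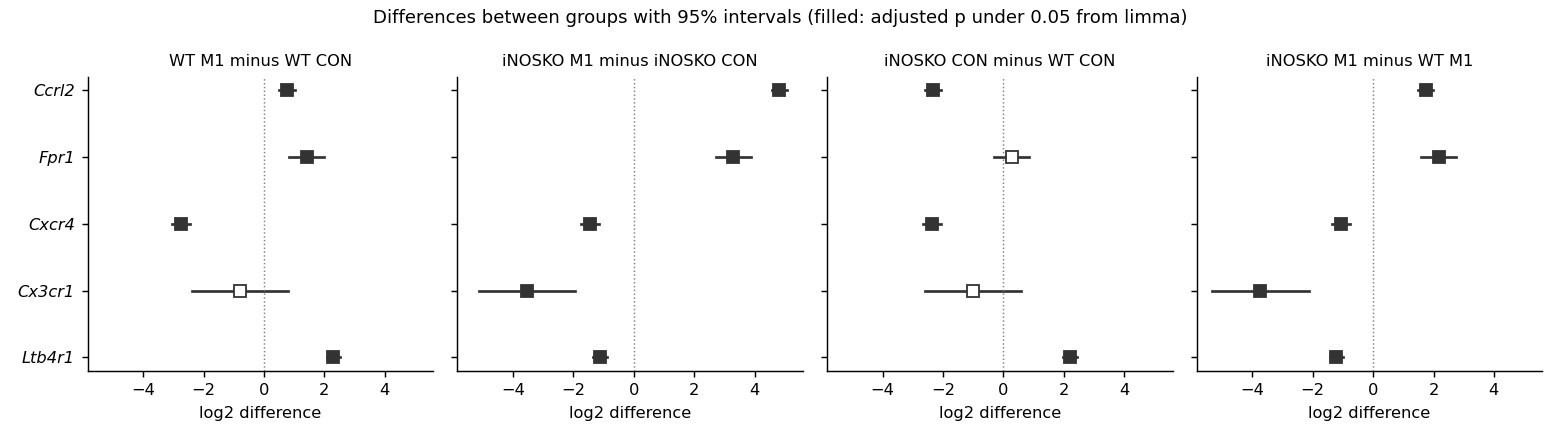
Log2 differences (x axis) of the 5 tested receptors (y axis) in 4 comparisons, with 95% intervals from limma; filled squares have an adjusted p under 0.05. *Ccrl2* runs from -2.32 between the resting groups to 1.74 between the activated groups, *Ltb4r1* from 2.20 to -1.22, and the open squares are *Fpr1* and *Cx3cr1* at rest and *Cx3cr1* on activation of WT cells.

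The comparisons shown by these squares share groups with each other, so their signs are not independent. *Ccrl2* and *Ltb4r1* both changed sign between the resting and the activated genotype comparison, in opposite directions. *Cxcr4* was lower in iNOSKO cells in both. In absolute size, the median difference of the 5 receptors was 1.74 between the activated groups and 2.20 between the resting groups. Over all tested probes these medians were 0.65 and 0.45. *Cx3cr1*, which was not detected in iNOSKO M1, enters these medians with its fitted value.

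The 3 undetected receptors gave no level. *Ccr1*, a receptor for CCL3 and CCL5, had intensities from -4.9 to -0.4 over the 8 arrays and no detection p-value below 0.536. *Ccr2*, the CCL2 receptor, ran from -3.3 to 3.2 with a lowest detection p-value of 0.164. *Ccr3*, the eotaxin receptor, ran from -5.9 to 0.7 with a lowest value of 0.404. All 3 genes lie on chromosome 9 in RefSeq, the chromosome that also holds *Ccrl2* and *Cx3cr1*. A probe at background says that no signal was seen with that probe, not that the transcript was absent.

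Across the 8 arrays, which fall into 4 groups and are not independent points, *Ccrl2* and *Fpr1* had a Pearson r of 0.825, and *Cx3cr1* and *Fpr1* one of -0.892. *Cxcr4* had r = 0.765 with *Cx3cr1* and -0.813 with *Fpr1*. *Ltb4r1* was near 0 with *Cx3cr1* (-0.0134) and *Fpr1* (0.0722). Among 4399 other probes that were detected on all arrays and spanned at least 1 log2 unit between group means, those most like each receptor were *Nrap* and *H2-Q7* for *Ccrl2* (r = 0.998 and 0.994), *Cct3* and *Cdyl* for *Fpr1* (0.998 and 0.996), *Ptger2* and *Aifm2* for *Cxcr4* (0.995 and 0.995), *Tle6* and *Urm1* for *Cx3cr1* (0.989 and 0.989), and *Top2a* and *Ppm1m* for *Ltb4r1* (0.996 and 0.994). With 4 group means such values are easily reached, as 67 of the candidates had r over 0.95 with *Ltb4r1* and 499 with *Fpr1*. *H2-Q7* is a class I histocompatibility gene, *Ptger2* a prostaglandin E2 receptor and *Top2a* a topoisomerase of dividing cells.

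To see the set within its family, 28 further chemoattractant receptors with a probe were examined, of which 11 could be tested. Between iNOSKO M1 and WT M1, 4 were higher and 1 lower, against 22.9% and 25.3% of all probes, with a median log2 difference of 0.07 against -0.03 for all probes. Between the resting groups 5 were higher and 2 lower, against 16.7% and 15.4% of all probes (median 0.95 against 0.00). On activation 5 were called higher and 1 lower in WT cells, against 20.8% and 14.3% of all probes (median 1.24 against 0.09), but 2 of these calls, *Ccr6* and *Cxcr5*, lay below detection in both groups and give no fold. In iNOSKO cells 5 were higher and 2 lower on activation, against 25.2% and 25.1% of all probes (median 1.5 against 0.00). With neqc normalization the last 3 medians were 0.08, 0.17 and 0.11, so their size depended on how dim probes were scaled. Other calls rest on the floor in 1 group. *Gpr33* and *Cxcr5*, higher in iNOSKO M1, were undetected in WT M1, and *Ccr6*, higher at rest, was undetected in WT CON. *Gpr33* passed the filter only through iNOSKO M1. *Il8ra*, lower at rest and on activation in WT cells, passed only through WT CON. The filter thus set the direction of the *Gpr33* and *Il8ra* calls. There were 13 receptors without detection on any array, among them *Cxcr3* and *Cmklr1*, the signalling receptor for chemerin.

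*Ccr7*, which guides dendritic cells to lymph nodes, had the pattern of a stepwise rise. Its intensities were 12.8 and 16 in WT CON, 227.2 and 168.3 in WT M1, 163.9 and 201.0 in iNOSKO CON, and 1792.0 and 1506.3 in iNOSKO M1. WT M1 and iNOSKO CON overlapped in these deposited intensities but not after scaling, where their log2 means were 7.92 ± 0.20 and 7.24 ± 0.16 (SD, n = 2 arrays each). iNOSKO M1 stood above all other arrays, 7.81-fold above WT M1 (log2 difference 2.96, adjusted p = 0.000271 from limma). *Fpr2*, a related formyl peptide receptor, had intensities of 1125.8 and 1187.0 in WT CON, 3509.8 and 3504.6 in WT M1, 2716.8 and 2827.0 in iNOSKO CON, and 10267.4 and 9451.5 in iNOSKO M1. Unlike *Fpr1*, *Fpr2* was also higher at rest in iNOSKO cells (log2 difference 1.17, adjusted p = 0.000825).

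Other receptors were near the limit of detection. *Gpr33*, an orphan chemoattractant-like receptor, was detected in iNOSKO M1 only, at 28.6 and 25.7, at least 4.54-fold above WT M1. *Cxcr5*, the CXCL13 receptor, was detected on both arrays of iNOSKO M1 (30.2 and 29.0) and on 1 of 2 of iNOSKO CON, and was at least 4.95-fold above WT M1. *Ccr6*, the CCL20 receptor, was detected on both arrays of iNOSKO CON (36.2 and 48.3) and on 1 of 2 of iNOSKO M1, and was at least 6.19-fold above WT CON. *Il8ra*, the older name of *Cxcr1*, was detected in WT CON only (13.7 and 14.0), at least 2.45-fold above iNOSKO CON.

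**Figure D3:**
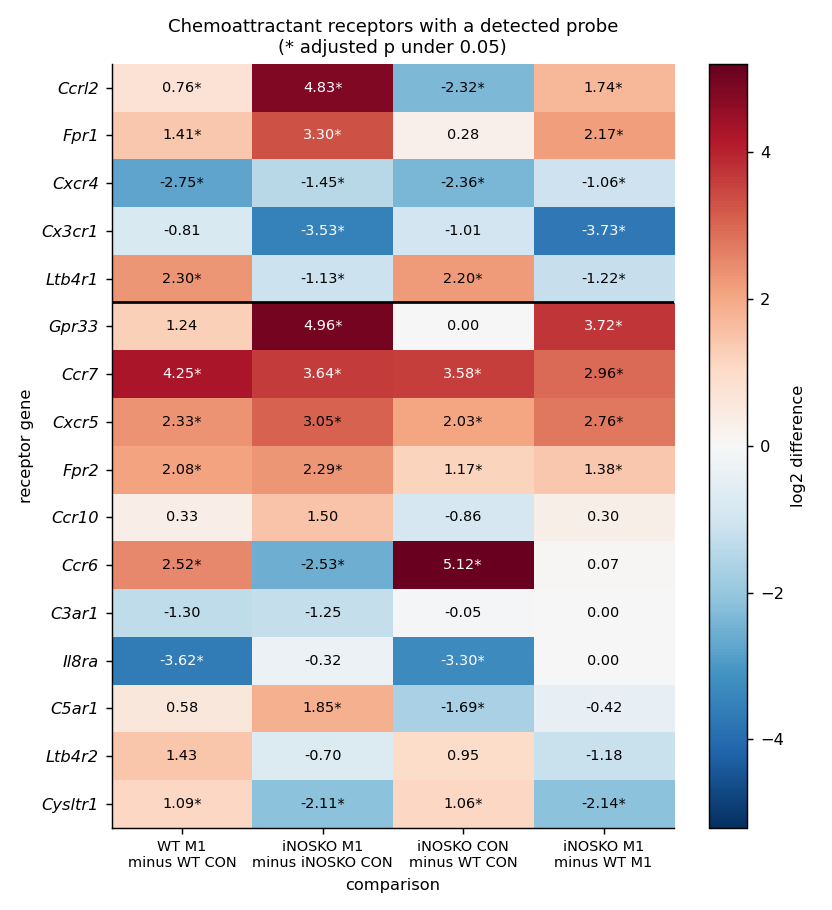
Log2 differences (colour and printed value) of the 5 tested receptors of the set, above the line, and of 11 further tested receptors, below it (y axis), in 4 comparisons (x axis); an asterisk marks an adjusted p under 0.05. *Ccr7* and *Fpr2* are positive and called in all 4 columns, a pattern that none of the 5 receptors above the line has; values of receptors undetected in a group rest on the floor.

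In the heatmap of receptors, *Cysltr1*, a cysteinyl leukotriene receptor that was singled out after its values were seen, had the signs of *Ltb4r1* in every column. It rose by 1.09 on activation in WT cells and fell by 2.11 in iNOSKO cells (adjusted p = 0.00218 and 0.000128 from limma). For both genes the highest groups were thus WT M1 and iNOSKO CON. *Ltb4r2*, the low-affinity leukotriene B4 receptor, had the same signs, with values between -1.18 and 1.43, but was not called in any of the 4 columns.

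Of the ligands of these receptors and the enzymes that make or degrade them, 24 had a probe and 20 were tested. Between iNOSKO M1 and WT M1, 10 were higher and 3 lower, against 22.9% and 25.3% of all probes, with a median of 0.59 against -0.03. These counts moved with the scaling, to 9 and 5 with neqc and 7 and 5 with quantile normalization. At rest 7 were higher and 7 lower in iNOSKO cells, against 16.7% and 15.4% of all probes (median 0.20). Activation raised 11 and lowered 1 in WT cells, against 20.8% and 14.3% of all probes, and raised 13 and lowered 2 in iNOSKO cells, against 25.2% and 25.1% (medians 0.63 and 0.85). *Cxcl12*, the ligand of CXCR4, and *Rarres2*, which encodes chemerin, were undetected in all 4 groups.

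*Cx3cl1*, which encodes the ligand fractalkine, had intensities of 16.4 and 11.8 in WT CON, 144.7 and 105.9 in WT M1, 146.4 and 132.4 in iNOSKO CON, and 726.9 and 666.0 in iNOSKO M1. It was 5.22-fold higher in iNOSKO M1 than in WT M1 (log2 difference 2.38, adjusted p = 0.000591 from limma). In that comparison *Cx3cr1* was at least 3.59-fold lower under the main scaling, with a smaller fitted log2 difference of -1.02 under neqc. *Ccl7*, a CCR2 ligand, was 6.47-fold higher in iNOSKO M1 than in WT M1 and 8.79-fold higher in iNOSKO CON than in WT CON. *Ccl5*, a ligand of CCR1, rose 20.6-fold on activation in iNOSKO cells and was 3.51-fold higher in iNOSKO M1 than in WT M1. *Ccl3*, which CCR1 also binds, rose 15.8-fold on activation in iNOSKO cells.

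*Ccl24*, a CCR3 ligand, was undetected in WT CON and at least 7.48-fold higher in WT M1. *Dpp4*, a peptidase that trims CXCL12 among other chemokines and also counts among the dendritic cell markers, was undetected in WT CON (4.0 and 1.2) and at 342.9 and 304.1 in WT M1, 507.4 and 570.5 in iNOSKO CON, and 794.8 and 747.6 in iNOSKO M1. It was at least 79.7-fold higher in iNOSKO CON than in WT CON and at least 70.9-fold higher in WT M1 than in WT CON. On the leukotriene side, *Alox5* and *Alox5ap*, the 5-lipoxygenase that starts leukotriene synthesis and its activating protein, are named after their values were seen. In iNOSKO M1 their log2 differences from WT M1 were -1.64 and -0.83 (adjusted p = 0.00255 and 0.00129 from limma). They were picked from the 3 lower of 20 tested ligands and enzymes, of which 10 were higher. Other genes of leukotriene synthesis on the list and the other comparisons are not described here.

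Of the genes that carry the receptor signal, 27 had a probe and 25 were tested. Between iNOSKO M1 and WT M1, 7 were higher and 3 lower, against 22.9% and 25.3% of all probes (median 0.05 against -0.03). At rest 9 were higher and 1 lower in iNOSKO cells, against 16.7% and 15.4% of all probes (median 0.29). Activation raised 12 and lowered 4 in WT cells, against 20.8% and 14.3% of all probes, and raised 7 and lowered 3 in iNOSKO cells, against 25.2% and 25.1% (medians 0.42 and -0.01). Some of these balances moved with the scaling. On activation of iNOSKO cells the counts became 6 higher and 7 lower with neqc, and 6 and 6 with quantile normalization. Between iNOSKO M1 and WT M1 they became 6 higher and 8 lower with neqc, and 6 and 5 with quantile normalization. *Gnb4*, a G protein β subunit, was 4.91-fold higher in iNOSKO M1 than in WT M1 and rose 8.71-fold on activation in WT cells. *Gng12*, a γ subunit, was at least 3.11-fold higher in iNOSKO M1 than in WT M1, where it was undetected.

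*Rgs1*, which shortens Gi signalling downstream of chemokine receptors, responded in opposite directions in the genotypes. Its intensities were 2723.2 and 2553.4 in WT CON, 1029.0 and 1031.7 in WT M1, 975.3 and 1048.1 in iNOSKO CON, and 2660.9 and 2520.3 in iNOSKO M1. WT M1 and iNOSKO CON were low, the reverse of the *Ltb4r1* pattern. *Rgs1* rose by 1.82 on activation in iNOSKO cells and fell by 0.88 in WT cells (adjusted p = 9.85e-05 and 0.00204 from limma). *Pik3cg*, the PI3-kinase catalytic subunit that G protein βγ activates, was 3.17-fold higher in iNOSKO CON than in WT CON. *Adrbk2*, a receptor kinase that starts desensitisation, was undetected in WT CON and at least 3.44-fold higher in iNOSKO CON and 3.06-fold higher in WT M1.

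Cell type markers moved with these groups. The summed scaled intensity of 10 macrophage markers lay between 40160 and 59310 over the 8 arrays. Single macrophage markers differed, with 3 higher and 5 lower of 10 tested in iNOSKO M1 against WT M1 (median log2 difference -0.31). Of all probes 22.9% were higher and 25.3% lower. The summed scaled intensity of 10 dendritic cell markers was 869 to 893 in WT CON, 12897 to 13499 in WT M1, 11074 to 12079 in iNOSKO CON and 24202 to 24814 in iNOSKO M1. Among them *Flt3* was undetected on all arrays and *Cd209a* was undetected in WT CON and iNOSKO M1. *Dpp4* and *Kmo* were also undetected in WT CON. Of the 9 tested, 3 were higher in iNOSKO M1 than in WT M1 (*Ccl17*, *Cd83* and *Fscn1*), 2 lower (*Cd209a* and *Kmo*) and 4 not called, against 48.2% of all probes called. Between the resting groups 8 were called higher and 0 lower, against 16.7% and 15.4% of all probes. The median log2 difference of the 9 tested was 4.09, and 1.51 with neqc, so its size depended on the scaling. In the same comparison *Ccrl2* and *Cxcr4* were lower and *Ltb4r1* higher in iNOSKO cells. For 12 neutrophil markers the sums were 1252 to 1256, 1486 to 1587, 1762 to 1816 and 3947 to 4100 in the same group order. Among them *Mpo* and *Retnlg* were undetected everywhere. *Ela2* and *Il8rb* were undetected in iNOSKO M1, the group with the highest sum. In WT CON *S100a9*, *Camp*, *Ngp* and *Il8rb* were undetected, and in WT M1 *Il8rb* was. Between iNOSKO M1 and WT M1, 3 of 9 tested neutrophil markers were higher and 0 lower, against 22.9% and 25.3% of all probes. The part of either cell type in the receptor values was not tested.

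**Figure D4:**
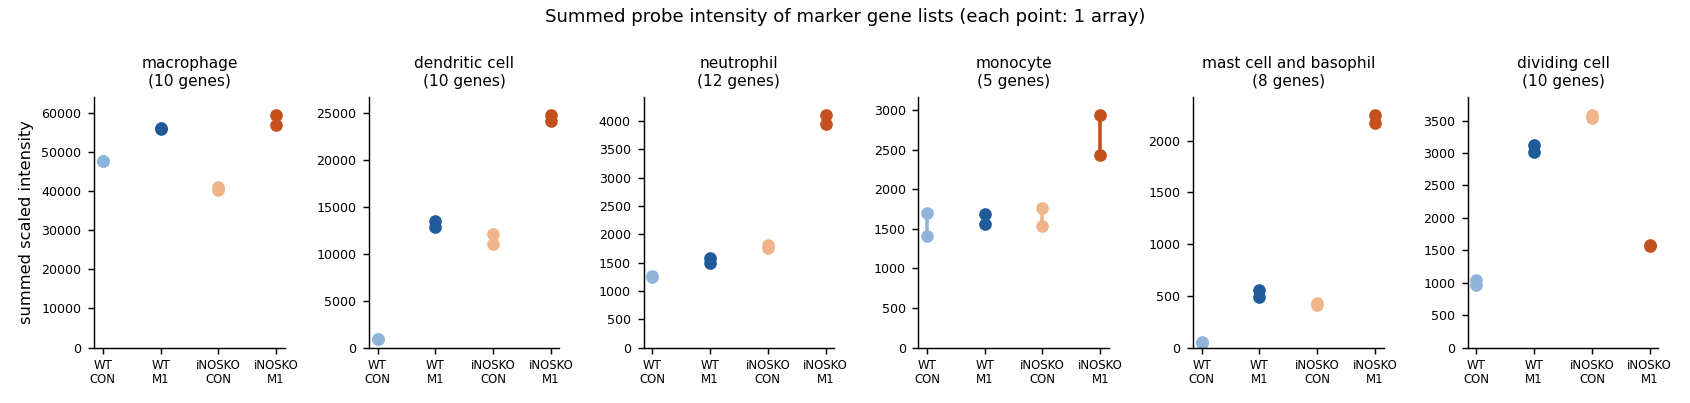
Summed scaled intensity (y axis, from 0) of the marker genes of 6 cell types or states on each of the 8 arrays (points), by group (x axis); a line joins the 2 arrays of a group. Dendritic cell markers run from 869 to 893 in WT CON up to 24202 to 24814 in iNOSKO M1, and dividing cell markers are highest in iNOSKO CON, at 3533 to 3583.

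In the plot of marker sums, the dividing cell genes had the group order of the log2 means of *Ltb4r1* except that WT M1 and iNOSKO CON changed places. Their sums were 961 to 1037 in WT CON, 3015 to 3125 in WT M1, 3533 to 3583 in iNOSKO CON and 1570 to 1575 in iNOSKO M1. All 9 tested were higher in WT M1 than in WT CON, against 20.8% of all probes. Between iNOSKO M1 and iNOSKO CON 8 were lower and 1 higher, against 25.1% and 25.2%. *Top2a*, a member of that list, was the probe most like *Ltb4r1*. Markers of mast cells and basophils summed to 46.7 to 58.4 in WT CON and 493 to 552 in WT M1. In iNOSKO CON they summed to 415 to 435 and in iNOSKO M1 to 2175 to 2247. Among them *Ms4a2*, *Mcpt8*, *Tpsab1* and *Cma1* were undetected on all arrays. Monocyte markers, 5 genes, summed to 1409 to 1701, 1561 to 1685, 1531 to 1759 and 2434 to 2936 in the same order of groups. Of 9 eosinophil markers, *Prg3*, *Epx* and *Il5ra* were undetected on all arrays, and of 7 lymphocyte markers 0 passed the filter. The part of these cells in the receptor values was not tested.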

How the data were processed

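BMDM RNA was measured on 8 arrays, 2 for each of 4 groups, which are Illumina mouse bead arrays (MouseRef-8 v2.0 per the series text, MouseWG-8 v2.0 per the methods). The authors deposited bead-averaged probe intensity values, not normalized between arrays, with a detection p-value beside each value. Per the methods, they subtracted background, normalized by rank-invariant probes, put 1 for negative values, took log2 and used limma with Benjamini-Hochberg correction. The submitters' processing notes name GenomeStudio and limma 3.14.4. The file header names an analysis without background subtraction, yet 25.2% to 27.2% of the values per array were below 0. Values below 0 point to background removed before deposit, against the header, and none was subtracted here.

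Groups and replicate numbers came from the labels, and all 8 arrays were used. The scale factor of an array was the slope of a robust regression of the mean array on that array, without intercept (rlm of MASS 7.3.60.0.1). It used probes whose rank differed by less than 0.05 of their rank in the mean array. Their ranks lay between 0.5 and 0.9 of all ranks. Scale factors ran from 0.813 to 1.30. Scaled values were floored at 1 before log2. A model of the 4 groups was fitted in limma 3.58.1 under R 4.3.3 (lmFit, eBayes) to the 13868 probes, with 10163 symbols, that were detected at p under 0.05 on 2 or more arrays, with 4 residual degrees of freedom. With 2 arrays a group, the number of arrays limits the precision. A fold change against a group without detection is given as a bound, with each undetected value raised, where it was lower, to the dimmest detected probe of its array. Genes with several probes are given by the brightest. Gene names follow the array's own annotation, which can be old.

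The receptors, the gene lists and the rule for named genes were chosen with earlier results of these data known. 1 further receptor of the lists is not reported here. The rule covers each receptor of the set, up to 3 genes a list with the largest called changes without overlap, and the 2 most similar genes per receptor. Replicate numbers shared between groups were not used to pair the arrays in the main fit. Deviations of same-numbered arrays correlated between -0.0343 and 0.0270. This shows no shared deviation but cannot tell whether same-numbered arrays had a common origin. The procedure was tested on simulated arrays, and its acceptance limits were reset after the first run. There, false calls exceeded the rate that the adjustment aims for and lay on probes not detected on every array, as *Cx3cr1* is, and changes of 2-fold were often missed. Promoter windows are RefSeq's (GRCm38.p6), and all 9 genes had at least 1. Alternatives were neqc, quantile normalization, a scaling line with an intercept, a floor of 16, other detection filters, an intensity trend, a replicate block, fits on 4 arrays, a 2-fold minimum, and each array left out.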

Additional observations from a re-analysis of the deposited data

Results flagged for a closer look

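For 4 of the 5 tested receptors the response to LPS and IFN-γ differed between the genotypes by the interaction term of the limma model. The log2 response of *Ccrl2* was larger in iNOSKO than in WT cells by 4.06 (SE 0.15, adjusted p = 0.000147), and it rose in both. The response of *Fpr1* was larger by 1.89 (SE 0.33, adjusted p = 0.00828), a rise in both genotypes. For *Cxcr4* the difference was 1.30 (SE 0.17, adjusted p = 0.00333), a smaller fall in iNOSKO cells. For *Ltb4r1* it was -3.42 (SE 0.13, adjusted p = 0.000147), a rise in WT and a fall in iNOSKO cells. Over all tested probes 42% were called in this comparison, 19.4% positive and 22.6% negative.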

How the results depend on the processing

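The calls of *Ccrl2*, *Fpr1*, *Cxcr4* and *Ltb4r1* kept their side of the threshold under every alternative fit that was run, and with a 2-fold minimum *Ccrl2* lost its call on activation of WT cells (1.70-fold), which left 3 receptors called. Their direction held in all but 1 case: *Fpr1* between the resting groups, never called, was -0.015 (adjusted p = 0.969 from limma) without WT CON replicate 1 and up to 0.57 with other arrays left out. The *Cx3cr1* difference in response turned to 0.27 with a floor of 16 (adjusted p = 0.173). *Cx3cr1* gained a call in 15 cases. Between the resting groups it was called under neqc (-0.75, adjusted p = 0.000238), with an intercept (0.0359), with a floor of 16 (0.00199), on the 4 arrays (0.0218) and without either iNOSKO M1 array (0.00719); over all its settings the adjusted p ran from 0.000238 to 0.513. The same settings led to a call on activation of WT cells (0.000336 to 0.602 over all settings). The difference in response was called with an intensity trend (0.00814) and without iNOSKO M1 replicate 1 (-3.73, 0.00154) or 2 (-1.71, 0.00566), over a range up to 0.173.

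With each array left out in turn, the number of called receptors was 5 between the M1 groups, 3 to 4 between the CON groups, 4 to 5 on activation in WT, 5 in iNOSKO cells and 4 to 5 for the difference in response. With the replicate number as a block the counts were 5, 3, 4, 5 and 4 in that order, and the block changed no receptor's call. Restricted to probes detected on all 8 arrays, *Cx3cr1* was not tested.

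Scaling moved the background. The median of all probes became 0.24 between the M1 groups, -0.12 between the CON groups, -0.10 on activation in WT, 0.20 in iNOSKO cells and 0.33 for the difference in response with an intercept, and -0.13 on activation of iNOSKO cells under quantile normalization. The share of calls that were higher on activation in WT was 59.3%, against 44.4% with neqc, 47.4% with quantile normalization and 49.0% with an intercept. Between the M1 groups it was 47.5%, and 58.4% with an intercept, and for the difference in response 46.1%, and 59.7% with an intercept. Among the other receptors no called direction turned under these scalings. *Ccl9*, *Mif* and *Gnb2* turned or fell to 0 under neqc and quantile normalization on activation of iNOSKO cells, and *Ccl9* turned between the M1 groups (0.25 to -0.19 under each). Signalling genes called between the M1 groups were 6 higher and 8 lower with neqc.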
